A study of Homo sapiens with 3 samples.

Results

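IMR-32 is a MYCN-amplified neuroblastoma cell line, and its whole expression profile was set against a reference pool of RNA from 16 different cancer cell lines. The question was which genes, grouped by what they do, stand above or below a mixture of cancer cells in this line, outside the 2p amplicons that the study described in it. Each value is the log2 ratio of the IMR-32 signal over the pool signal of a probe set, and the value of a gene is the median over its probe sets. All 19775 genes with a probe set that names a single gene symbol were taken. Of these, 12672 were read as firm, which means that the higher signal of the pair lay at or above the median of its own array (89.9 in IMR-32 and 119 in the pool). The study has 3 samples with 1 array each, and the other neuroblastoma sample is NGP, a MYCN-amplified line, whose values are given beside those of IMR-32. All were untreated, and the labels name no introduced allele. IMR-32 was grown in Minimum Essential Medium and NGP in RPMI 1640, so line and medium cannot be told apart. The identities of the lines in the pool are not given in the sources used here, and each cell line stands for 1 tumour.

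Neuroblastoma is a childhood tumour of the sympathetic nervous system. It arises from neural crest cells on their way to sympathetic neurons or to the chromaffin cells of the adrenal medulla. Transcription factors such as PHOX2A, HAND2 and ISL1 set that lineage, and mature sympathetic neurons mostly make noradrenaline, while a smaller class makes acetylcholine. Neuroblastoma cells in culture occur in an adrenergic and a mesenchymal state. Most cancer cell lines in common use come from epithelia, which keratins, claudins and E-cadherin define.

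A firm gene was called overexpressed when its ratio lay within the top 7% of all ratios (above 1.68, or 3.21-fold) and underexpressed within the bottom 7% (below -2.83, or 7.10-fold lower). This called 863 genes higher, which is 4.36% of all genes, and 916 genes lower, which is 4.63%. Shares of a gene list are read against these percentages, and list medians against the all-gene median of -0.23 in IMR-32 and -0.22 in NGP. With 1 array a side there is no replicate error, no p-value is given, and the number of arrays limits the precision. The only spread at hand is that between probe sets of a gene, whose standard deviation was 1.32 on the log2 scale over 10523 genes. Of the genes called higher, 448 had a pool signal below the pool median, and of those called lower, 803 had an IMR-32 signal below the IMR-32 median. For these, a fold given as "at least" takes the array median in place of the dim signal. Among the genes nearest to the upper limit, E2F3 (1.68) lay just inside and SEPTIN3 (1.68) just outside. At the lower limit PXN (-2.83) lay just inside and AIFM2 (-2.83) just outside, both differing by less than the spread between probe sets. The calls form 2 clouds off the diagonal in the plot of signals.

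**Figure D1:**
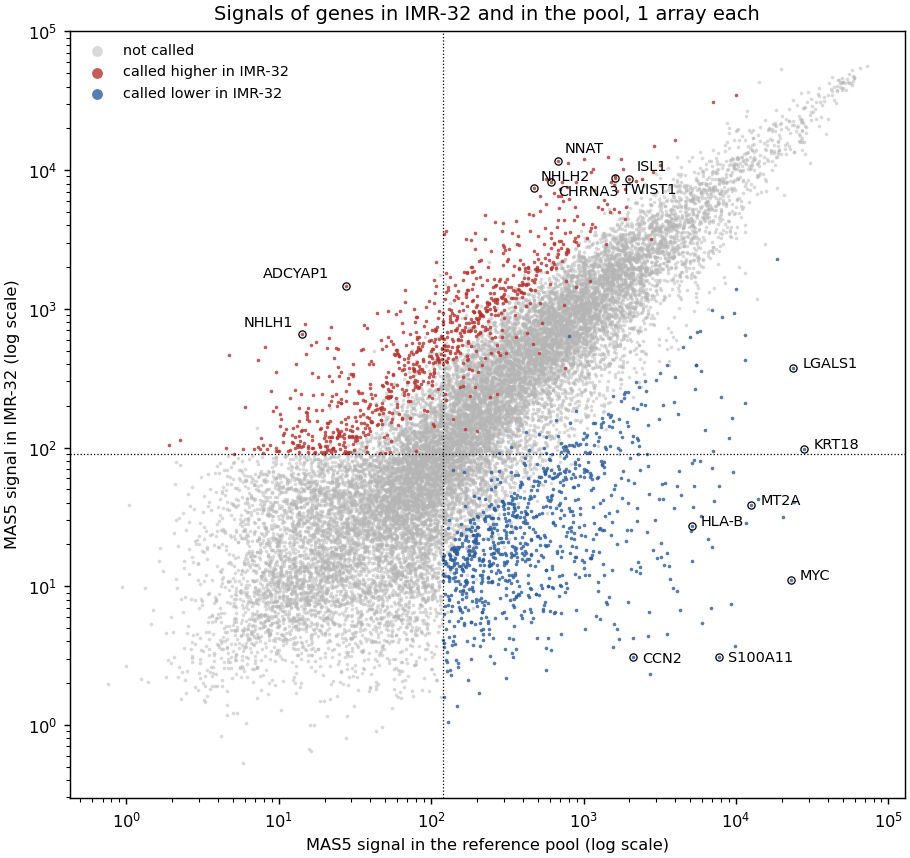
MAS5 signal of each gene in the reference pool (x axis) and in IMR-32 (y axis), both on log scales, as the median over probe sets. Red and blue points are genes called higher and lower, dotted lines are the array medians, and a call uses the median of probe set ratios, so a few called genes lie near the diagonal. NHLH2 and CHRNA3 stand high above it, while MYC, with 22905 in the pool and 11.1 in IMR-32, lies far to its lower right.

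The label of the line was checked against cell type markers. Of 8 measured adrenergic neuroblastoma markers, 7 reached the array median in IMR-32, with DBH below it, and 7 did so in the pool, so this count does not set the line apart. Their summed signal was 22707 in IMR-32, 6022 in the pool and 46977 in NGP. The Schwann cell markers SOX10 (11.6) and S100B (4.10) were below the median in IMR-32. Of 6 epithelial markers, whose summed signal was 387 in IMR-32 and 57316 in the pool, CDH1, EPCAM, KRT19 and ESRP1 were below the median in IMR-32. Of 4 haematopoietic markers, PTPRC and CD53 were below it and 2 were not, with a summed signal of 697 in IMR-32 and 2495 in the pool. Of 4 melanocytic markers, MLANA and TYR were below it and 2 were not, with 850.0 in IMR-32 and 711 in the pool. Among 5 mesenchymal markers, PRRX1 and FOSL1 were below it, while TWIST1, SNAI2 and FN1 were above, FN1 with a ratio to the pool of -2.71. All 5 reached the median in the pool, with a summed signal of 10121 in IMR-32, 8140 in the pool and 13643 in NGP. The higher sum in IMR-32 than in the pool comes from TWIST1, with a ratio of 2.44. FN1, PRRX1 (-1.84), SNAI2 (-0.13) and FOSL1 (-7.25) all had ratios below 0. Both sides are RNA of whole cultures, in which a smaller share of cells of a type and less RNA per cell cannot be told apart, and in the pool a gene that is high in a few lines and one that is moderate in many cannot either.

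Promoter sequences are shown for 4 genes that recur below: the nicotinic receptor subunits CHRNB4 and CHRNA3, the vesicular acetylcholine transporter SLC18A3, and the neuronal helix-loop-helix factor NHLH1. They were chosen because cholinergic and helix-loop-helix genes were among the highest ratios, and HAND and NHLH factors belong to a family that binds the E-box, CANNTG. Each run is the 250 bases before the RefSeq start (GRCh38.p14), 5′ to 3′ on the strand of the gene, with every CANNTG in capitals. CHRNB4 lies at chr15:78641211-78641460 on the minus strand, CHRNA3 at chr15:78620997-78621246 on the minus strand, SLC18A3 at chr10:49610060-49610309 on the plus strand and NHLH1 at chr1:160366821-160367070 on the plus strand.
CHRNB4: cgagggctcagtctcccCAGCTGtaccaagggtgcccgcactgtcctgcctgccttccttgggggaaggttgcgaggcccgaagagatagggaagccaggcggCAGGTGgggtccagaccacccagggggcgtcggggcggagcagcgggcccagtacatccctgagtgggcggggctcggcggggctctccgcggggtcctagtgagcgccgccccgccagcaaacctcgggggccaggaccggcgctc
CHRNA3: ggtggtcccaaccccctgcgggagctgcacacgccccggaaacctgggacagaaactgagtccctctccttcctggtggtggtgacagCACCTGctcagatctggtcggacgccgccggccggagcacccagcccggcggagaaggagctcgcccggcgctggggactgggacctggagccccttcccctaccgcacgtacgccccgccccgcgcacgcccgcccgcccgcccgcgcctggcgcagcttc
SLC18A3: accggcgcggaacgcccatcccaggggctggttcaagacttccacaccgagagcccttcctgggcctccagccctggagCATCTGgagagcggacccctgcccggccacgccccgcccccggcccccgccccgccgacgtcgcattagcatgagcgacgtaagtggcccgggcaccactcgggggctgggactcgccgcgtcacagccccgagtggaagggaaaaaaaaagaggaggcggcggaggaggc
NHLH1: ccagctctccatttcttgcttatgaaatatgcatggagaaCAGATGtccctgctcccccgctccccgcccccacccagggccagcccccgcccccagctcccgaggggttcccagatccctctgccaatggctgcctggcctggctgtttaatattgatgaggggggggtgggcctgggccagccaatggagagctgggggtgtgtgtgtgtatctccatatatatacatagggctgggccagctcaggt
The CHRNB4 window holds CAGCTG and CAGGTG, the CHRNA3 window CACCTG, the SLC18A3 window CATCTG and the NHLH1 window CAGATG, the same letters as CATCTG on the other strand. Such letters are common. Over 21490 windows of 15384 measured genes, 57.95% held a CANNTG, against 56.6% of windows of overexpressed and 62.8% of windows of underexpressed genes. CATCTG or CAGATG was held by 10.2%, 11.5% and 12.5%, and CACGTG, the letters that MYC family proteins bind, by 7.38%, 7.44% and 6.01%. For the AP-1 letters TGACTCA or TGAGTCA the shares were 3.49%, 2.05% and 5.06%. For TATAAA on the gene's strand they were 5.47%, 5.28% and 9.69%. A match describes the window and is no evidence of binding.

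The transcription factors of the sympathetic lineage had the highest median of the 57 gene lists. Of 28 measured members (25 firm), 14 were overexpressed and 0 underexpressed, and the list median was 1.71 (1.90 in NGP). PHOX2A, a homeobox factor of noradrenergic neurons, had a signal of 6553 in IMR-32, 683 in the pool and 9948 in NGP, a log2 ratio of 3.26. HAND2, a helix-loop-helix factor needed for sympathetic neurons, had 829 in IMR-32, 147 in the pool and 928 in NGP. ISL1, a LIM homeobox factor, had 8676 in IMR-32, 2003 in the pool and 18754 in NGP. In these 3 genes both neuroblastoma lines lay above the pool. SOX11, a neural SOX factor, had 4766 in IMR-32, 467 in the pool and 7838 in NGP, and its 3 probe sets gave ratios from 3.00 to 3.35. TLX2, a homeobox factor of neural crest derivatives, had the highest ratio of the list, 4.18, with 3525 in IMR-32, 195 in the pool and 1713 in NGP. HAND1, SATB1, KLF7, INSM1, DACH1, ZNF536 and LMO1 were also overexpressed. TBX2 and SIX3 were too, but 1 or more of their probe sets gave a ratio below 0. GATA3 had a ratio of 1.63, just under the limit. In contrast, GATA2 (239 in IMR-32, 661 in the pool) and TFAP2B (38.6 and 244) lay below the pool in IMR-32, whereas NGP had 1923 and 4095.

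The enzymes that make noradrenaline did not go with these factors. Of 18 catecholamine genes (14 firm), 2 were overexpressed and 1 underexpressed, with a median of -0.57. TH, the rate-limiting enzyme of catecholamine synthesis, had a signal of 103 in IMR-32, 271 in the pool and 4379 in NGP. DBH, which turns dopamine into noradrenaline, had 62.5 in IMR-32, 69.96 in the pool and 636 in NGP. For TH, IMR-32 lay below the pool, for DBH both were below their array medians and no direction is read, and NGP stood far above the pool for both. DDC, the decarboxylase between these steps, was overexpressed at 791 in IMR-32, 535 in the pool and 3699 in NGP, though its 2 probe sets gave 0.25 and 3.62. SLC6A2, the noradrenaline transporter, was overexpressed with 546 in IMR-32, 68.8 in the pool and 804 in NGP, over 8 probe sets that ranged from -1.45 to 4.69. CYB561, which recycles ascorbate for DBH in the vesicle, was underexpressed (110.3 in IMR-32, 2070.3 in the pool and 565 in NGP). MAOA, which degrades catecholamines, had a ratio of -2.10 and was not called.

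Cholinergic genes were high in IMR-32. Of 19 measured members (13 firm), 6 were overexpressed and none underexpressed, and the median was 1.14 (0.95 in NGP). CHAT, choline acetyltransferase, had a signal of 329 in IMR-32, 21.5 in the pool and 8.42 in NGP. SLC18A3, which loads acetylcholine into vesicles and lies within the CHAT gene, had 461 in IMR-32, 109 in the pool and 27.3 in NGP. Both were above the pool in IMR-32, both were below the array median in the pool and in NGP, and both rest on 1 probe set. With the pool at its median these are at least 2.76-fold and 3.87-fold. SLC5A7, the choline transporter, was below the median of every array, at 22.7 in IMR-32, 47.7 in the pool and 25.4 in NGP. The ganglionic nicotinic subunits come from a cluster on chromosome 15. Its CHRNA3 had 8238 in IMR-32, 608 in the pool and 4567 in NGP and 3 probe sets between 3.57 and 4.17, CHRNB4 had 430.4 in IMR-32, 7.36 in the pool and 338 in NGP and at least a 3.61-fold difference, and CHRNA5 had 1525 in IMR-32, 484 in the pool and 1769.9 in NGP, a ratio of 1.66 just under the limit. For these 3 subunits NGP was above the pool too. CHRM2, a muscarinic receptor, was called with 90.2 against 5.08, a signal barely over the IMR-32 median. CHRNB2 was called from 2 probe sets that disagreed (-1.94 and 5.53), and the brighter one is the lower.

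**Figure D2:**
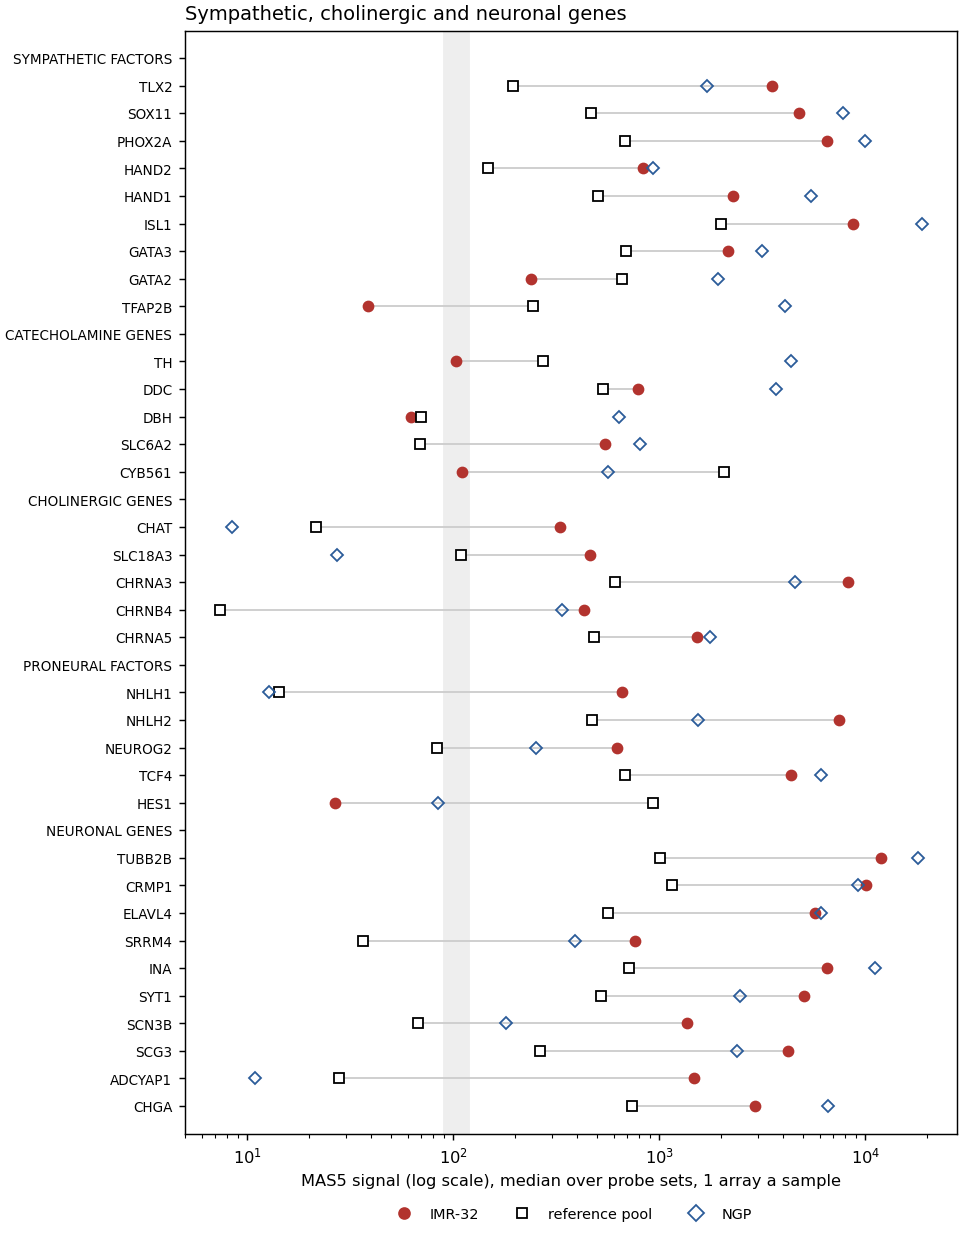
MAS5 signal (x axis, log scale) of sympathetic, catecholamine, cholinergic, proneural and neuronal genes in IMR-32 (red circles), the pool (open squares) and NGP (blue diamonds), 1 array each, and the grey band spans the IMR-32 and pool medians. TH, DBH and TFAP2B lie low in IMR-32 and high in NGP, while CHAT, SLC18A3, NHLH1 and ADCYAP1 show the opposite order.

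Among proneural and ID factors, which start and time neuronal differentiation, 7 of 25 were overexpressed and 2 underexpressed (median 0.76, NGP 0.11). The 2 NHLH genes led. NHLH1 had 657 in IMR-32, 14.2 in the pool and 12.8 in NGP, at least 5.52-fold over the pool, on 1 probe set. NHLH2 had 7419 in IMR-32, 471 in the pool and 1541 in NGP, a ratio of 4.93. So NHLH1 was above the array median in IMR-32 and below it in NGP and the pool, while NHLH2 was above it in all 3. NEUROG2, a neurogenin, had 625 in IMR-32, 83.2 in the pool and 253 in NGP, TCF4, the E-protein partner of such factors, had 4372 in IMR-32, 678 in the pool and 6076 in NGP with all 8 probe sets between 2.64 and 2.95, and ATOH8 had 1356 in IMR-32, 304 in the pool and 202 in NGP. Inhibitors of these factors diverged. ID1 (9849.5 in IMR-32, 6019 in the pool and 8451 in NGP) and ID2 (3303 in IMR-32, 1866 in the pool and 11912 in NGP) were bright in IMR-32 and not called, while HES1, a repressor downstream of Notch, was underexpressed at 26.7 in IMR-32, 929 in the pool and 84.6 in NGP, though 1 of its 3 probe sets gave 0.10 and is the one left when those ending in _s_at are dropped. Within the Notch list, NOTCH2 had 43.1 in IMR-32, 1782 in the pool and 87 in NGP and HES4 was also underexpressed, while DLK1, a non-canonical ligand, and NUMBL, an inhibitor, were overexpressed (2 and 3 of 26, median -0.80).

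Neuronal structure genes followed the lineage factors. Neurite and microtubule genes had 16 of 40 overexpressed and none underexpressed, with a median of 1.59. TUBB2B, a neuronal tubulin, had 11968 in IMR-32, 1009 in the pool and 18083 in NGP. CRMP1 and DPYSL2, which guide growth cone microtubules, had 10118 and 9631 in IMR-32 against 1153 and 1124 in the pool. MAP1B, MAP2, STMN2 and GAP43 were called as well, and STMN2 and GAP43 were higher in NGP (19839 and 2539) than in IMR-32 (4369 and 746). TUBB3 was bright everywhere (15357 in IMR-32, 13091 in the pool and 23255 in NGP) and not called. Of 13 intermediate filament genes, the neuronal INA (6503 in IMR-32, 712 in the pool and 11091 in NGP), PRPH, NEFH and NEFM were overexpressed and the nuclear lamin LMNA (235 in IMR-32, 1556 in the pool and 432 in NGP) was underexpressed.

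Neuronal RNA-binding and splicing genes had 10 of 25 overexpressed and 1 underexpressed (median 1.17). SRRM4, an activator of neuronal microexons, had 762 in IMR-32, 36.5 in the pool and 389 in NGP, at least 6.40-fold. ELAVL2, ELAVL3 and ELAVL4, the neuronal Hu proteins, were all called, with 4641, 1661 and 5686 in IMR-32 and 911, 196 and 564 in the pool. ESRP1, the epithelial splicing factor, was the one underexpressed, at 16 in IMR-32, 1106 in the pool and 26.3 in NGP. REST, the repressor of neuronal genes, had 111 in IMR-32, 70.96 in the pool and 85.4 in NGP, and its probe sets ran from -0.93 to 0.83.

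Vesicle, peptide and channel genes were called in part. Of 42 synaptic vesicle genes, 11 were overexpressed and 2 underexpressed (median 0.30), led by SYT1, the calcium sensor of release (5039.6 in IMR-32, 519 in the pool and 2456 in NGP). SYT4 was not above the pool (1522 in IMR-32, 1902 in the pool and 1169 in NGP). Of 29 granin and neuropeptide genes, 6 were overexpressed, yet the median was -0.07. ADCYAP1, which codes for the peptide PACAP, had 1472 in IMR-32, 27.8 in the pool and 10.9 in NGP, at least 12.4-fold over the pool. CHGA and SCG3, granins of dense core vesicles, had 2929.9 in IMR-32, 738 in the pool and 6565 in NGP and 4198 in IMR-32, 263 in the pool and 2392 in NGP. By contrast CHGB (1409 in IMR-32, 1421 in the pool and 2609.7 in NGP) and NPY (234 in IMR-32, 245 in the pool and 519.7 in NGP) were close to the pool in IMR-32. Of 46 voltage-gated channel genes only 22 were firm, 9 were overexpressed and none underexpressed. SCN3B, a sodium channel beta subunit, had 1359 in IMR-32, 67.1 in the pool and 179.8 in NGP, and KCNH2, a potassium channel, had 901 in IMR-32, 263 in the pool and 1258 in NGP. Of 35 glutamate, GABA and glycine receptor genes 12 were firm and 3 overexpressed.

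Neural adhesion genes had 14 of 39 overexpressed and 1 underexpressed (median 0.67, NGP 1.29). NLGN4X, a neuroligin, had 1126 in IMR-32, 67.4 in the pool and 887 in NGP, CNTN2, a contactin of axons, had 616 in IMR-32, 21.3 in the pool and 124 in NGP, and L1CAM had 857 in IMR-32, 302 in the pool and 597 in NGP. ALCAM was the one below the pool, at 143 in IMR-32, 1961 in the pool and 721 in NGP. NCAM1 had a ratio of 1.05 and was not called, and its 7 probe sets ranged from -1.25 to 4.39. Of the clustered protocadherins, of which 36 were measured, PCDHB14, PCDHB16 and PCDHAC2 were overexpressed and PCDHB5 underexpressed, and PCDHB13 was called from 2 probe sets that disagreed in sign. Axon guidance genes split evenly, with 4 overexpressed, such as UNC5B, and 4 underexpressed, such as EPHA2 and EFNA1, of 47.

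Receptor tyrosine kinases and their ligands showed 5 overexpressed and 5 underexpressed of 35. GFRA2, the neurturin co-receptor, had 3194 in IMR-32, 227 in the pool and 859 in NGP. KIT, the stem cell factor receptor, had 1699 in IMR-32, 134 in the pool and 489 in NGP, and the growth factor MDK had 7826 in IMR-32, 1585 in the pool and 3849 in NGP. The receptors DDR2 (2.23) and ROR2 (2.04) were overexpressed too. MET (37.3 in IMR-32, 1156 in the pool and 19.4 in NGP), ERBB2, AXL, MERTK and EPHA2 were underexpressed. RET, the signalling receptor that GFRA2 works with, had 57.3 in IMR-32, 383 in the pool and 1669 in NGP and was not called, so IMR-32 was below the pool and NGP above it. NTRK2 was dim in IMR-32 (9.35). In the IGF list, IGFBP3, IGFBP6 and IGFBP7 were underexpressed and none overexpressed of 15.

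Epithelial genes had the lowest median of the lists. Of 48 measured members (44 firm), 32 were underexpressed and 1 overexpressed, with a median of -3.78 in IMR-32 and -3.87 in NGP. KRT18, a keratin of simple epithelia, had 98.2 in IMR-32, 28088 in the pool and 117 in NGP. Its partner KRT8 had 209 in IMR-32, 11440.2 in the pool and 134 in NGP, the adhesion protein EPCAM had 40.97 in IMR-32, 7157 in the pool and 17.2 in NGP, and CDH1, E-cadherin, had 17.5 in IMR-32, 3542 in the pool and 7.69 in NGP. In all 4 genes both neuroblastoma lines lay far below the pool. CD24, a surface glycoprotein shared by epithelia and neural progenitors, was the exception at 16615 in IMR-32, 3953 in the pool and 9263 in NGP. This call was lost under 3 of the 6 alternative settings that change the values and could be computed for it. Genes of hepatic, intestinal and hormone-dependent carcinomas had 11 of 35 underexpressed, with KLK3, prostate-specific antigen, at 20489.7 in the pool and 31.8 in IMR-32. Of 26 cancer-germline genes 7 were underexpressed, MAGEA12 and MAGEA6 among them. The haematopoietic and melanocytic lists had 5 of 30 and 3 of 16 underexpressed, and these lists had no overexpressed member.

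**Figure D3:**
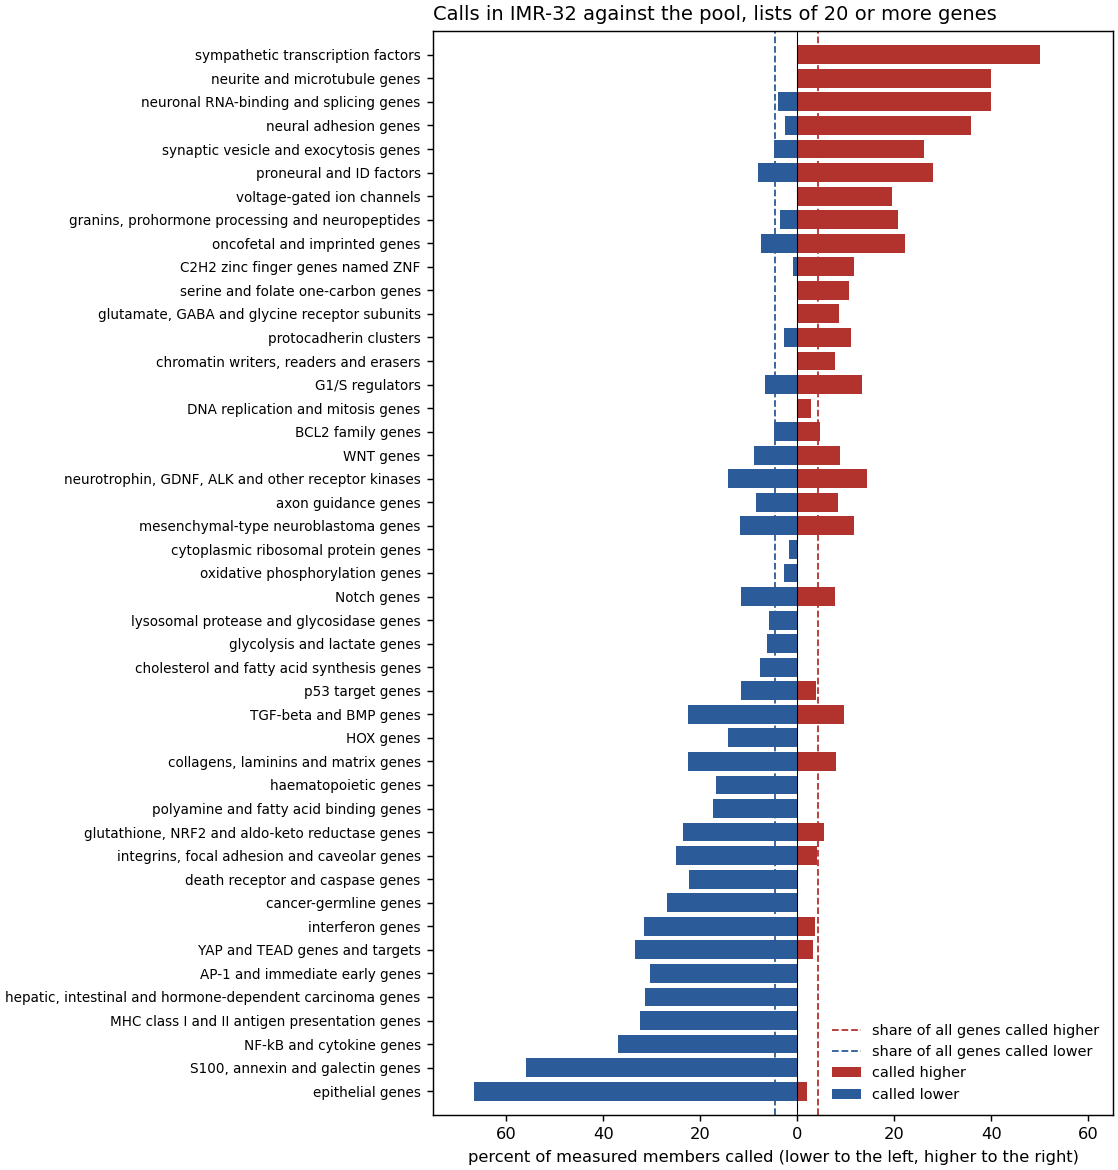
Percent of measured members called lower (blue, to the left) and higher (red, to the right) in IMR-32, for gene lists of 20 or more genes with at least 1 call, and dashed lines give the shares of all genes, 4.63% and 4.36%. Neural lists extend to the right at the top, and epithelial, S100 and immune lists to the left at the bottom.

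S100, annexin and galectin genes had 19 of 34 underexpressed and none overexpressed, with a median of -3.05. S100A11, a calcium-binding protein, had 3.11 in IMR-32, 7790.4 in the pool and 479 in NGP, at least 86.6-fold lower than the pool. S100A10, which pairs with annexin A2 at the membrane, had 37.4 in IMR-32, 5228 in the pool and 41.8 in NGP, and LGALS1, galectin-1, had 373 in IMR-32, 23776 in the pool and 307 in NGP. ANXA2 itself was bright in IMR-32 and lower in NGP (16064 in IMR-32, 26326 in the pool and 325 in NGP). For ANXA2, IMR-32 and the pool differed by less than the spread between probe sets.

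Adhesion, YAP and AP-1 genes were mostly below the pool. Matrix genes had 14 of 62 underexpressed and 5 overexpressed, and integrin and focal adhesion genes 12 and 2 of 48. COL5A2, a fibrillar collagen, had 4.26 in IMR-32, 2096 in the pool and 97.1 in NGP and CAV1, the caveolar coat protein, 29.6 in IMR-32, 2250.4 in the pool and 16.4 in NGP. TIMP2, a metalloproteinase inhibitor, went the other way (8253 in IMR-32, 1525 in the pool and 2058 in NGP), with all 3 probe sets above 1.69, while its relative TIMP1 had 354 in IMR-32, 5909 in the pool and 238 in NGP. ITGA4, an integrin subunit of neural crest and blood cells, was overexpressed at 413 in IMR-32, 97.5 in the pool and 126 in NGP. Of 30 YAP and TEAD genes and targets, 10 were underexpressed. Among these CCN2, a secreted YAP target, had 3.07 in IMR-32, 2118 in the pool and 25.7 in NGP, and WWTR1, the co-activator TAZ, had 17.95 in IMR-32, 727 in the pool and 43.9 in NGP. Of 33 AP-1 and immediate early genes, 10 were underexpressed and none overexpressed (median -1.71, NGP -0.88). FOSL1 had 15 in IMR-32, 2275 in the pool and 24.3 in NGP, and FOS and FOSB were called as well. TGF-beta and BMP genes had 7 of 31 underexpressed, such as TGFBI and INHBB, and 3 overexpressed, ACVR2B, SMAD7 and SMAD9. SMAD9, a BMP signal transducer, had 5954 in IMR-32, 734 in the pool and 5864 in NGP.

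The mesenchymal-type neuroblastoma genes were mixed, with 4 overexpressed and 4 underexpressed of 34, and a median of -1.66. TWIST1, a neural crest helix-loop-helix factor, had 8763 in IMR-32, 1614 in the pool and 11298 in NGP, and ZEB1, a repressor of CDH1, had 1576 in IMR-32, 279.7 in the pool and 1096 in NGP. AEBP1 and PRRX2 were overexpressed too. FOSL1, WWTR1, NOTCH2 and NT5E were underexpressed. VIM (5546 in IMR-32, 10847 in the pool and 9888 in NGP) and SNAI2 (878 in IMR-32, 964 in the pool and 1077 in NGP) were bright in all 3 samples and not called.

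Genes of antigen presentation, interferon response and inflammation were low. The MHC list had 11 of 34 underexpressed and none overexpressed (median -1.73, NGP -2.25). HLA-B had 27.2 in IMR-32, 5144 in the pool and 244 in NGP and HLA-C 53.01 in IMR-32, 7745 in the pool and 111 in NGP, and PSMB8, PSMB9 and TAP1, which prepare and carry peptides for them, were underexpressed. These class I genes are highly alike, so their probe sets may not tell them apart. B2M, the light chain shared by class I molecules, was bright at 14021 in IMR-32, 27225 in the pool and 13729.5 in NGP and not called. Interferon genes had 17 of 54 underexpressed, with IFITM3 at 19.1 in IMR-32, 6993 in the pool and 28.4 in NGP and ISG15 at 45.8 in IMR-32, 4341 in the pool and 15.1 in NGP. IFI44 (1682 in IMR-32, 406 in the pool and 44.6 in NGP) and IFIT5 (1035 in IMR-32, 259 in the pool and 1038 in NGP) were the overexpressed members. Their share of the list (3.70%) was near that of all genes. NF-kB and cytokine genes had 17 of 46 underexpressed and none overexpressed. The chemokine CXCL8 (32.8 in IMR-32, 857 in the pool and 63.1 in NGP), IL18, IL32 and CCL20 were among them.

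Survival genes that were called lay mostly below the pool. Of 27 death receptor and caspase genes, 6 were underexpressed and none overexpressed (median -1.23, NGP -2.43). TNFRSF10A, a TRAIL receptor, had 44.96 in IMR-32, 444 in the pool and 31.6 in NGP, and MLKL, the effector of necroptosis, had 27.4 in IMR-32, 999.9 in the pool and 60.6 in NGP. CASP8, the initiator caspase of these receptors, had 41.3 in IMR-32, 185 in the pool and 5.23 in NGP, a ratio of -2.73, and fell just short of the limit. In the BCL2 family 2 of 21 genes were called, 1 in each direction, which is a share near that of all genes. HRK, a pro-apoptotic BH3-only protein of neurons, had 1323 in IMR-32, 126 in the pool and 15.4 in NGP and was overexpressed, and BIK had 3.57 in IMR-32, 568 in the pool and 20.2 in NGP and was underexpressed. Of 26 p53 target genes, PPM1D was overexpressed, a share (3.85%) near that of all genes, and GDF15, TIGAR and GADD45B were underexpressed (11.5%).

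**Figure D4:**
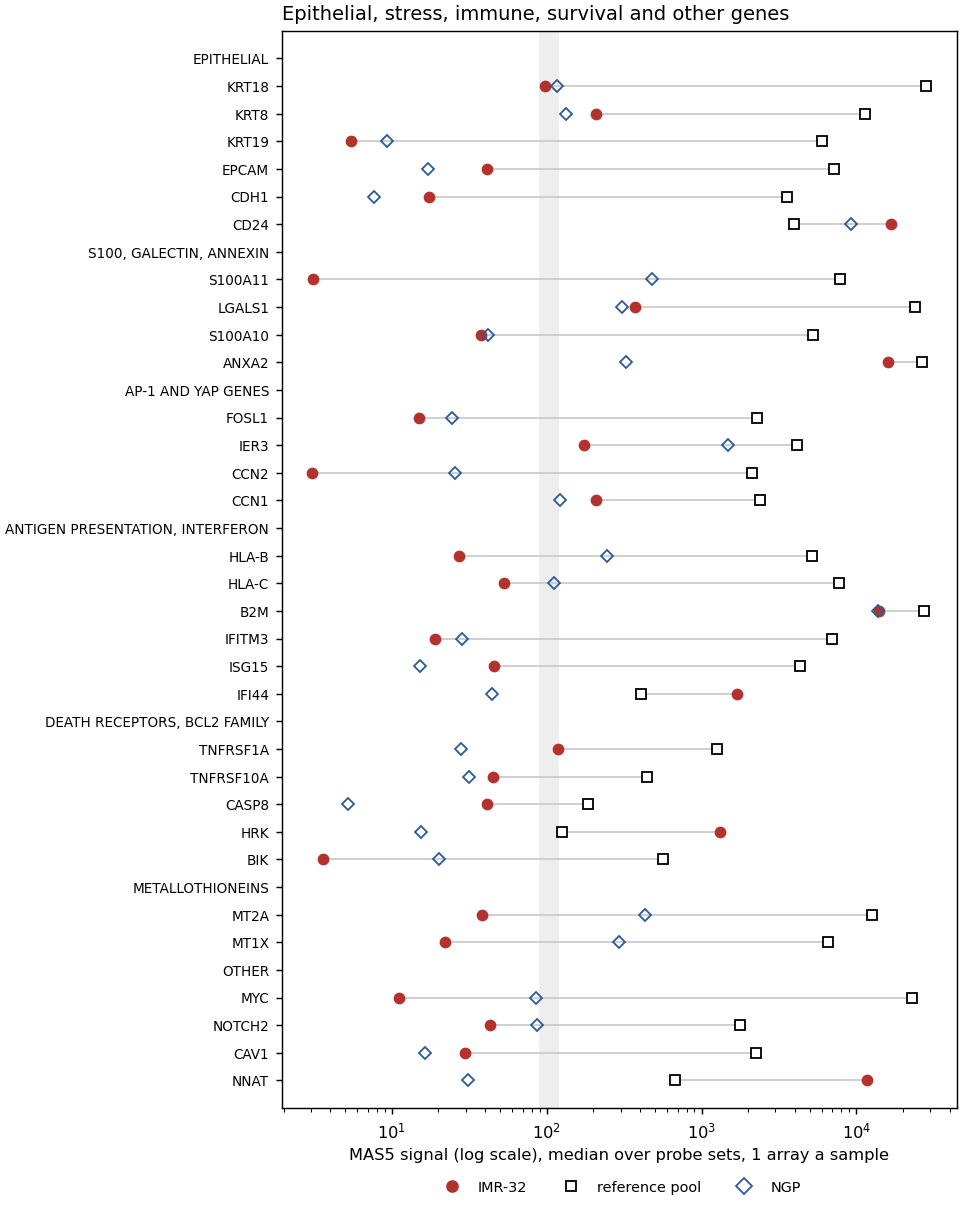
MAS5 signal (x axis, log scale) of epithelial, stress, immune, survival and other genes in IMR-32 (red circles), the pool (open squares) and NGP (blue diamonds), 1 array each, and the grey band spans the IMR-32 and pool medians. Most genes are bright in the pool and below the band in IMR-32, with CD24, IFI44, HRK and NNAT on the other side and ANXA2 and B2M bright in IMR-32.

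Most growth lists had medians near the pool, while MYC and some G1/S regulators stood apart. MYC, the family member that most carcinoma lines express, had 11.1 in IMR-32, 22905 in the pool and 85.3 in NGP, at least 255-fold lower in IMR-32 than in the pool. Of 14 measured genes of the MYC family and MAX network, a list without the amplified MYCN, it was the only one called. Ribosome biogenesis genes, many of them known MYC targets, had no call in 44 genes and a median of 0.08. Of 60 ribosomal protein genes 1 was called, RPL27A, and the median was -0.27. DNA replication and mitosis genes were above 0 in 57 of 70, with a median of 0.50, but only GINS3 and CDC7 were called. Among 30 G1/S regulators, CDK6, E2F3, E2F5 and the inhibitor CDKN1B (9713 in IMR-32, 2871 in the pool and 2834 in NGP) were overexpressed. However, E2F3, E2F5 and CDKN1B each lost the call under 3 of the alternative settings that change the values. CCND2 and CDKN2A, which codes for p16 and p14ARF, were underexpressed, CDKN2A with 22.8 in IMR-32, 1021 in the pool and 1966 in NGP. Proteasome genes (29, median -0.15) and housekeeping genes (26, median -0.43) had no call.

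Some developmental genes stood out among 27 oncofetal and imprinted genes, of which 6 were overexpressed and 2 underexpressed. NNAT, an imprinted membrane protein of the developing brain, had 11704 in IMR-32, 677 in the pool and 30.9 in NGP. It was thus bright in IMR-32 and below the array median in NGP. LIN28B, which blocks the let-7 microRNAs, had 2527 in IMR-32, 296 in the pool and 4345 in NGP, and IGF2BP1, a fetal RNA-binding protein, had 518 in IMR-32, 20.9 in the pool and 131 in NGP. NDN, imprinted on chromosome 15, was underexpressed at 10.3 in IMR-32, 699 in the pool and 13.2 in NGP. Of 77 chromatin genes, 6 were overexpressed and none underexpressed, with a median of 0.42. ACTL6B, the neuronal BAF subunit, had 968 in IMR-32, 52.1 in the pool and 908 in NGP, at least 8.13-fold, and BCL11A, another BAF-associated factor, had 2269 in IMR-32, 321 in the pool and 2194 in NGP. The 466 zinc finger genes named ZNF had 55 overexpressed, or 11.8%, and 4 underexpressed, with a median of 0.54 in IMR-32 and 0.22 in NGP. ZNF423, a neural zinc finger factor, had the highest ratio among them, 3.85. HOX genes had no overexpressed member and 4 underexpressed of 28, such as HOXB13.

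Metabolic genes were called mainly on the low side. Of 55 glutathione, NRF2 and aldo-keto reductase genes, a list that includes metallothioneins, 13 were underexpressed and 3 overexpressed. The metallothioneins MT2A (38.5 in IMR-32, 12596 in the pool and 434 in NGP) and MT1X (21.98 in IMR-32, 6544 in the pool and 292 in NGP) were among the lowest genes, and their near-identical copies may share probe sets. GPX7, a peroxidase of the endoplasmic reticulum, was overexpressed at 2862 in IMR-32, 378 in the pool and 29.7 in NGP. Retinoic acid genes had 6 of 17 underexpressed, among them the synthetic enzymes ALDH1A1, ALDH1A2 and ALDH1A3 and the binding protein CRABP2 (940.4 in IMR-32, 9762 in the pool and 4439 in NGP), and RXRG overexpressed. Of 32 glycolysis and lactate genes 2 were underexpressed, a share (6.25%) near that of all genes, and the median was -0.77. NDRG1, a stress-induced gene, was underexpressed at 263 in IMR-32, 5407 in the pool and 121 in NGP. The oxidative phosphorylation (-0.25) and cholesterol (-0.17) medians were near that of all genes. In ganglioside synthesis ST8SIA1, which makes GD3 on the way to GD2, had 126 in IMR-32, 10.9 in the pool and 33.1 in NGP, at least 1.06-fold over the pool, and ST6GALNAC3 and ST6GALNAC5 were overexpressed too.

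**Figure D5:**
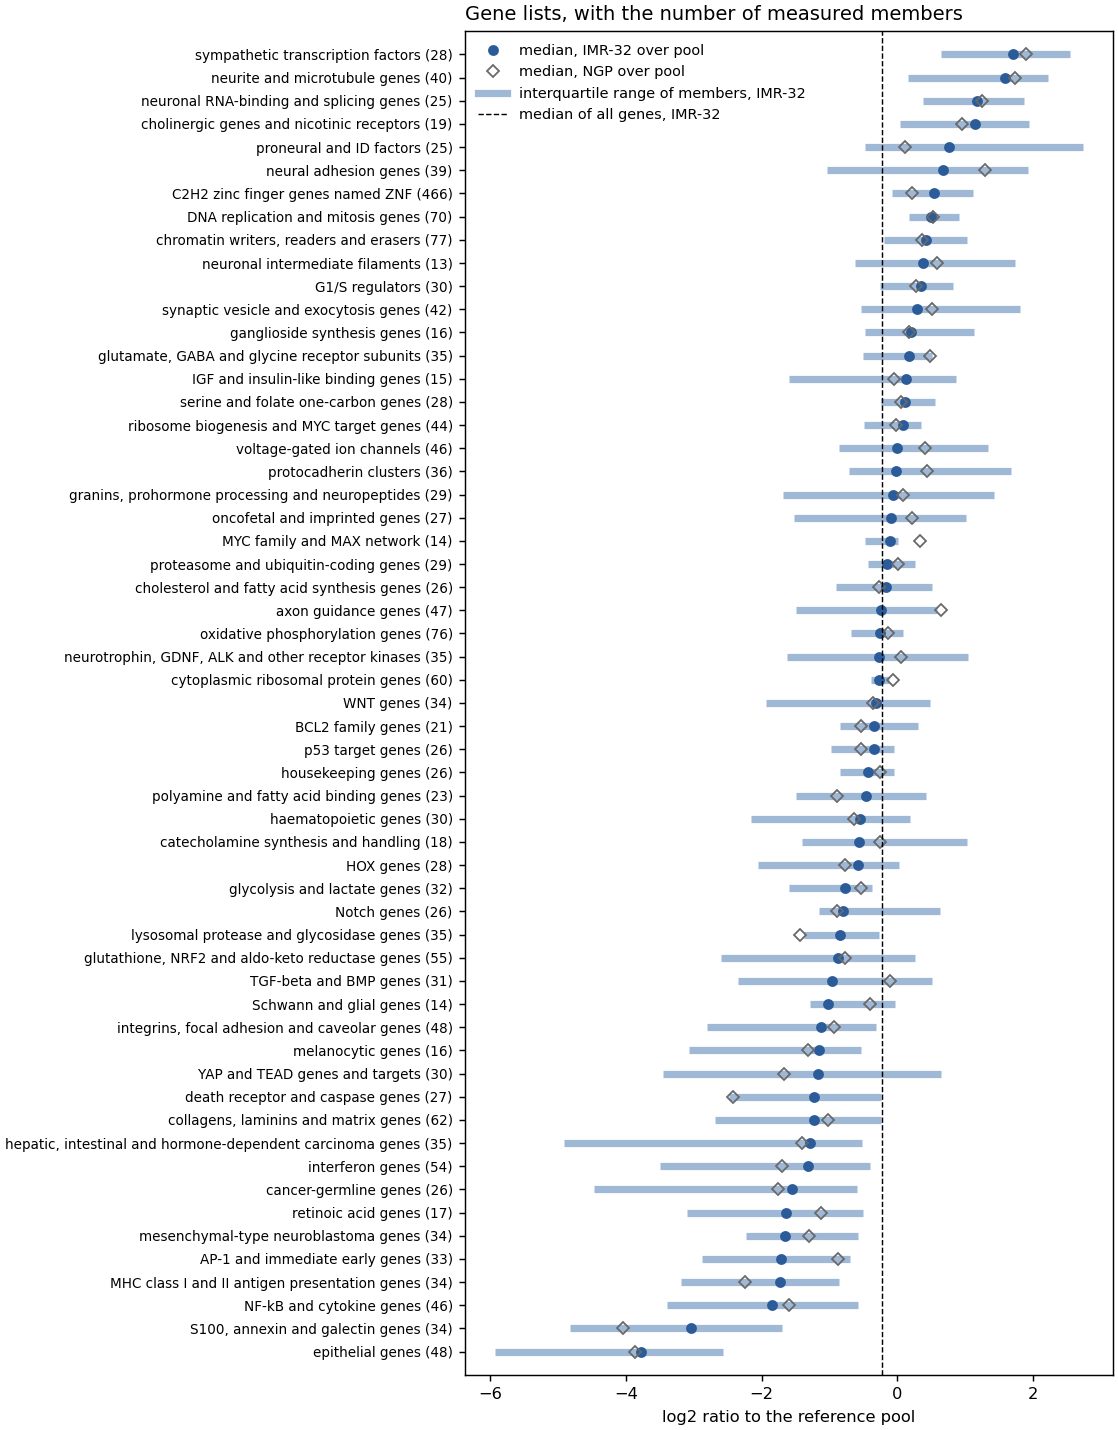
Median log2 ratio to the reference pool of each gene list in IMR-32 (blue circles) and NGP (open diamonds), with the interquartile range of the members in IMR-32 (bars), the number of measured members in parentheses and the all-gene median of IMR-32 (dashed line). Medians in IMR-32 run from -3.78 for epithelial genes to 1.71 for sympathetic transcription factors, and both lines share the pool.

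Among all firm genes whose probe sets all changed in one direction, outside the amplicons, the 20 highest ratios ran from 4.53 to 6.61 and the 20 lowest from -11.37 to -8.41. Of the 20 highest, 14 rest on 1 probe set and 17 were dim in the pool. With 32 added to each signal 10 of the 20 kept their place in the list. CORO2B, an actin-binding coronin, was first, with 464 in IMR-32, 4.73 in the pool and 5.53 in NGP, at least 3.89-fold. SIAH3 and RFPL1S had only 104 and 113 in IMR-32, below the pool median, and get no bound. Other genes of the 20 were the non-coding LINC01828, LINC02525, LINC01799 and TUNAR, the protocadherin PCDH8, the WNT antagonist DACT1, the homeobox gene DLX5, and B3GALT2, TMEM169, PPP1R14A and CHST2. With 32 added, EBF3, a factor of the early B-cell family active in neurons (3435 in IMR-32, 122 in the pool and 250.4 in NGP), PRSS12, FAM162B, THSD7B, HAND2-AS1 and ALX1 entered. At the low end MAL2, an epithelial transcytosis protein, came first with 3.71 in IMR-32, 9797 in the pool and 13.3 in NGP, at least 109-fold lower. After S100A11 and MYC came TCN1 (7.49 in IMR-32, 9213 in the pool and 37.4 in NGP), the mammary SCGB2A2, VAMP8, CLDN7, TFF1, CD55, DSP, IMPA2, PRAC1, LOC101927657, STEAP2 and MT1HL1. Of the 20 lowest, 17 rest on 1 probe set, MAL2, S100A11 and MYC among them. All 20 were dim in IMR-32, and all 20 were below the pool in NGP. The ranking picks genes that are bright in the pool, and that pool signal enters the NGP ratio too. The direction in NGP is thus not independent of the choice.

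By chromosome, the medians in IMR-32 spread little, from -0.39 over 825 genes of chromosome 16 to 0.09 over 612 genes of chromosome 15, which holds CHRNA3, CHRNB4 and CORO2B. In NGP these 2 chromosomes had -0.32 and -0.19. Chromosome 15 had 6.86% of its genes overexpressed and 4.90% underexpressed, and chromosome 16 had 2.18% and 5.45%. The part of copy number in these medians was not tested.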

How the data were processed

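Expression was profiled on Affymetrix U133 Plus 2.0 arrays, 1 each for IMR-32, NGP and the pooled RNA of 16 cancer cell lines. The authors isolated poly(A) RNA, labelled it in one cycle and summarized the scans with MAS5 in the Bioconductor package affy (version not given in the sources used here). The deposited values are MAS5 signal intensities on a linear scale, in which every array had a mean of 500 once the highest and lowest 2% were left out. Detection calls and scanner files were not used here. The authors' methods define over- and underexpression as the top and bottom 7% of log2 ratios, and this limit was kept.

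Of 54675 probe sets, 62 controls, 1801 with several symbols and 11721 without one were left out. Of the 41091 used, 41037 were matched by gene ID to the RefSeq table (GRCh38.p14) for current symbols. Log2 ratios were taken without a pseudocount, and a gene's signal is the median over its probe sets, which need not divide to its ratio. Genes were named as list members, or as the 20 highest and lowest firm genes with all probe sets in one direction, on log2 ratios and again on log2(signal + 32). MYCN, other amplicon genes and sex-linked marker genes were left out of these ranks. ZIC2, the genes at the limits and single genes of lists named as exceptions were chosen after their values were seen. The lists and the other choices were made with earlier results of these data known. Promoter windows came from RefSeq (GRCh38.p14) for 15384 genes, matched by symbol, with the bases after the start left out. The 10 alternatives (median-centring, quantile normalization, a pseudocount of 32, dim probe sets left out, a mean in place of the median over probe sets, the brightest one alone, no _s_at or _x_at probe sets, no filter on low values, a 5% limit and a fixed 4-fold limit) are compared in the closing section. The gene ratios and calls were tested on simulated data. The simulation moved genes bright in the pool by known amounts, with noise smaller than the spread between probe sets. It checks the computation and not how reliable the calls with a dim side are. Tools were pandas 2.3.3, numpy 2.4.6, matplotlib 3.10.9 and SciPy 1.17.1 under Python 3.11.15.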

Additional observations from a re-analysis of the deposited data

Results flagged for a closer look

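Both lines were set against the same pool. Of the 863 genes overexpressed in IMR-32, 378 were overexpressed in NGP too and 19 were underexpressed there. Of the 916 underexpressed in IMR-32, 555 were underexpressed in NGP too and 7 were overexpressed there. By the same rule, at most 7% of all genes can be called in each direction in NGP. Since the pool array enters both ratios, an error in a pool signal moves both lines the same way. These counts are therefore not read as a measure of likeness between the lines. The difference between the lines was not tested, since each has 1 array. NNAT had a log2 ratio of 4.11 in IMR-32 and -4.45 in NGP, a difference of 8.57. ZIC2, a zinc finger factor of the neural tube and crest, had 7495 in IMR-32, 776 in the pool and 16.7 in NGP, ratios of 3.27 and -5.54 and a difference of 8.81. The peroxidase GPX7 had 2.92 and -3.67, differing by 6.59. IFI44, an interferon-induced gene, had 2.19 and -3.20, differing by 5.39, and the protocadherin PCDHB16 had 2.32 and -3.24, differing by 5.56. IGFBP3, an IGF-binding protein, was the one named gene lower in IMR-32 (-5.82) and higher in NGP (2.05), a difference of -7.86.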

How the results depend on the processing

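No paired analysis was possible because each sample has 1 array and the labels carry no replicate numbers, and for the same reason no replicate could be left out. Precision is limited by the arrays and by dim signals, since 448 genes called higher and 803 called lower had a dim signal on their lower side. Of 20 recomputed counts of calls, 17 stayed within 1.5 times, and of 790 counts of called list members 653 did and 137 did not. Under the settings that change the values, the limits were reset to 7% of the ratios at each end. This largely holds the total counts in place, so they say little about stability there. Without the filter on low values both counts were 1385, since all genes beyond the limits then count, and with a fixed 4-fold difference 1503 genes were called lower. Of 392 recomputed list medians, 373 stayed within the 95% binomial interval of the median, and of 1602 ratios of single genes, 1486 moved by less than the spread between probe sets. Calls of single genes were followed only under the 7 alternatives that change the values, not under the 3 that change the filter or the limit. Of 204 called genes that the text names, 164 kept their call under all of these 7 that could be computed for them. The limits were recomputed each time. The call was lost under 1 or more for 40 genes, ALCAM, ALDH1A1, ASNS, CD24, CDC7, CDKN1B, CHGA, CHRNB2, CTH, DDC, DLK1, E2F3, E2F5, EBF3, GINS3, HES1, HES4, IFIT5, IGFBP7, INSM1, ITGA4, KCNH2, KLF7, KLK3, L1CAM, LMNA, LMO1, MERTK, NEFM, NUMBL, PCDHB13, PPM1D, PXN, RPL27A, SMAD7, TAP1, TBX2, TIMP2, WWTR1 and ZNF536.

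Among called genes, ratios changed sign for CHRNB2 with the brightest probe set (-1.94), for PCDHB13 with that setting or with dim probe sets left out (both -0.60), and for HES1 without _s_at and _x_at probe sets (0.10). EBF3 was 0.67 and MERTK -0.16 in the latter setting, and KLK3 -1.66 with the brightest probe set. Ratios that were not called also crossed 0 for B2M, CD53, CHGB, DBH, NPY, REST, S100B and SNAI2. The cause was not tested. Median-centring subtracts the all-gene median (-0.23) from every ratio. It gave 0.40 for glutamate, GABA and glycine receptors, 0.31 for ribosome biogenesis, -0.045 for ribosomal proteins, 0.73 for replication and mitosis, 0.77 for ZNF genes, -0.021 for oxidative phosphorylation, 0.32 for chromosome 15 and -0.16 for chromosome 16. Quantile normalization, which brought the all-gene median to -0.02, gave 0.40 for these receptors, -0.015 for ribosomal proteins, 0.73 for ZNF genes, and 0.24 and -0.22 for chromosomes 15 and 16. With 32 added to each signal the medians were -0.60 for cancer-germline genes, -1.06 for NF-kB and cytokine genes, 0.40 for ZNF genes and -0.25 for chromosome 16. With dim probe sets left out they were -1.45 for Schwann and glial genes, 0.61 for channels, 0.41 for glutamate, GABA and glycine receptors, -4.30 for hepatic, intestinal and hormone-dependent carcinoma genes, -4.95 for cancer-germline genes and 0.31 for chromosome 15. Without _s_at and _x_at probe sets they were -0.68 for matrix genes and 0.032 for housekeeping genes.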

Other observations

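Further lists were not part of the description above. WNT genes had 3 overexpressed and 3 underexpressed of 34 (median -0.31). ZNRF3, a ubiquitin ligase that removes WNT receptors, had 3067 in IMR-32, 689 in the pool and 674 in NGP, whereas its relative RNF43 had 14 in IMR-32, 480.2 in the pool and 8.87 in NGP. The 2 ligases thus lay on opposite sides of the pool in IMR-32. In the one-carbon list ALDH1L2, ASNS and CTH were overexpressed and none underexpressed of 28, though for ASNS the median signals differed little (3164 and 2786). Lysosomal genes had a median of -0.85, with CTSH and NPC2 underexpressed of 35, a share (5.71%) near that of all genes. Polyamine and fatty acid binding genes had 4 of 23 underexpressed, among them SAT1, which acetylates spermidine and spermine (392 in IMR-32, 5436 in the pool and 199 in NGP). Schwann and glial genes had no call in 14 measured genes, of which 5 were firm, and a median of -1.03.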
